A study of Bos taurus with 9 samples.

Results

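The genes described here gave less mRNA in bovine endometrial cells exposed to lysophosphatidic acid (LPA) with interferon tau (IFNt) than in untreated cells or in cells exposed to LPA alone. A probe set is the group of short probes on the array that reads 1 transcript, and its level is given on the log2 scale, on which a difference of 1 is a doubling. A probe set was a member where the annotation named 1 gene for it, its Control mean was at least 4, its LPA+IFNt mean lay at least 0.7 below both the Control and the LPA mean, and all 3 LPA+IFNt arrays lay below the 6 others. Symbols that start with SLC, CDK, TIMP, KIF or COL and the gene MEG3 were left out by the rule. This gave 42 probe sets of 39 genes, out of 13292 probe sets with 1 symbol that cover 9155 genes. MTURN, EED and SERPINA14 each entered with a pair of probe sets, and 38 of the 39 genes code for proteins. The members were chosen by the differences of LPA+IFNt from Control and from LPA, so these are given as a description with no test. The comparison of LPA with Control did not enter the rule directly, although the same Control and LPA arrays did. A gene that LPA alone had lowered could enter only if LPA+IFNt lay a further 0.7 lower. The rule thus bears on this comparison too.

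The cells were stromal and epithelial cells of the endometrium, the lining of the uterus, from 9 Holstein/Polish Black and White cows at days 2 to 5 of the cycle, cultured together at 3 stromal to 1 epithelial cell. For 6 h the Control cells received phosphate-buffered saline, the LPA cells 1e-06 M LPA, and the LPA+IFNt cells the same LPA with 1000 antiviral units of interferon tau, for which no volume is stated. Each of the 3 arrays in a group measured 100 ng of RNA pooled from 3 cows, so the 9 pools must share cows, and p-values measure the spread between these pools. Cells exposed to interferon tau without LPA were not analysed here, so no value below separates interferon tau from its combination with LPA. As RNA came from whole cultures, fewer cells of a type and less RNA per cell cannot be told apart. LPA replicate 2 stood apart from the other LPA arrays for the members, and results that rest on it are given with and without it. It was not the only low array, since Control replicate 3 was the lowest Control array in as many members.

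Interferon tau is the type I interferon that the ruminant embryo releases to signal its presence to the mother. It acts through the type I interferon receptor, which switches on antiviral genes, while other genes in the endometrium are lowered in the same period. LPA is a small signalling lipid that acts on G protein-coupled receptors and is made in the bovine uterus. The members are not a known pathway: they include hormone and cytokine receptors, secreted proteins of the uterine gland and matrix, proteins of lipid droplets and membrane contacts, and chromatin proteins.

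All 14 measured stromal markers and all 14 measured epithelial markers lay above the highest value of a bacterial trp probe set, 2.80, which serves here as the level of a transcript that bovine cells do not make. All 9 arrays of all 42 members also lay above it, with a lowest value of 3.05. Of 26 measured interferon-stimulated antiviral genes, 23 were higher in LPA+IFNt than in Control and 0 were lower, beside 2.48% of all probe sets called higher. A probe set is called where its limma p-value, adjusted by Benjamini-Hochberg over 24016 probe sets, is under 0.05. ISG15, a ubiquitin-like protein, went from 7.93 ± 0.04 in Control and 8.64 ± 0.26 in LPA to 14.56 ± 0.12 in LPA+IFNt (mean ± SD, n = 3).

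The members' differences were smaller than those of the antiviral genes, whose median was 3.75 above Control. Control means of the members ran from 4.24 to 11.09 with a median of 7.46, and the LPA+IFNt mean lay between 2.24 and 0.71 below it, with a median difference of -0.92. On the linear scale the LPA+IFNt level was 21.1% to 61.0% of the Control level, with a median of 52.7%, and it was under 50% for 16 of the 42. Below the nearer of the other group means, the drop was at least 1 for 13 probe sets. The gap between the highest LPA+IFNt array and the lowest of the other 6 arrays had a median of 0.56. It was under 0.2 for 4 probe sets and at least 1 for 5. All 42 were chosen for this gap, which 7.44% of all probe sets show in this direction, and the whole rule without its part on names was met by 0.541%, or 130 probe sets. Of these 130, 83 had no gene name and 5 were left out by symbol, namely CDKN1C, MEG3, TIMP2, COL3A1 and COL15A1. The same limits turned upwards, with an LPA+IFNt mean of at least 4, were met by 219 named probe sets of 179 genes.

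**Figure D1:**
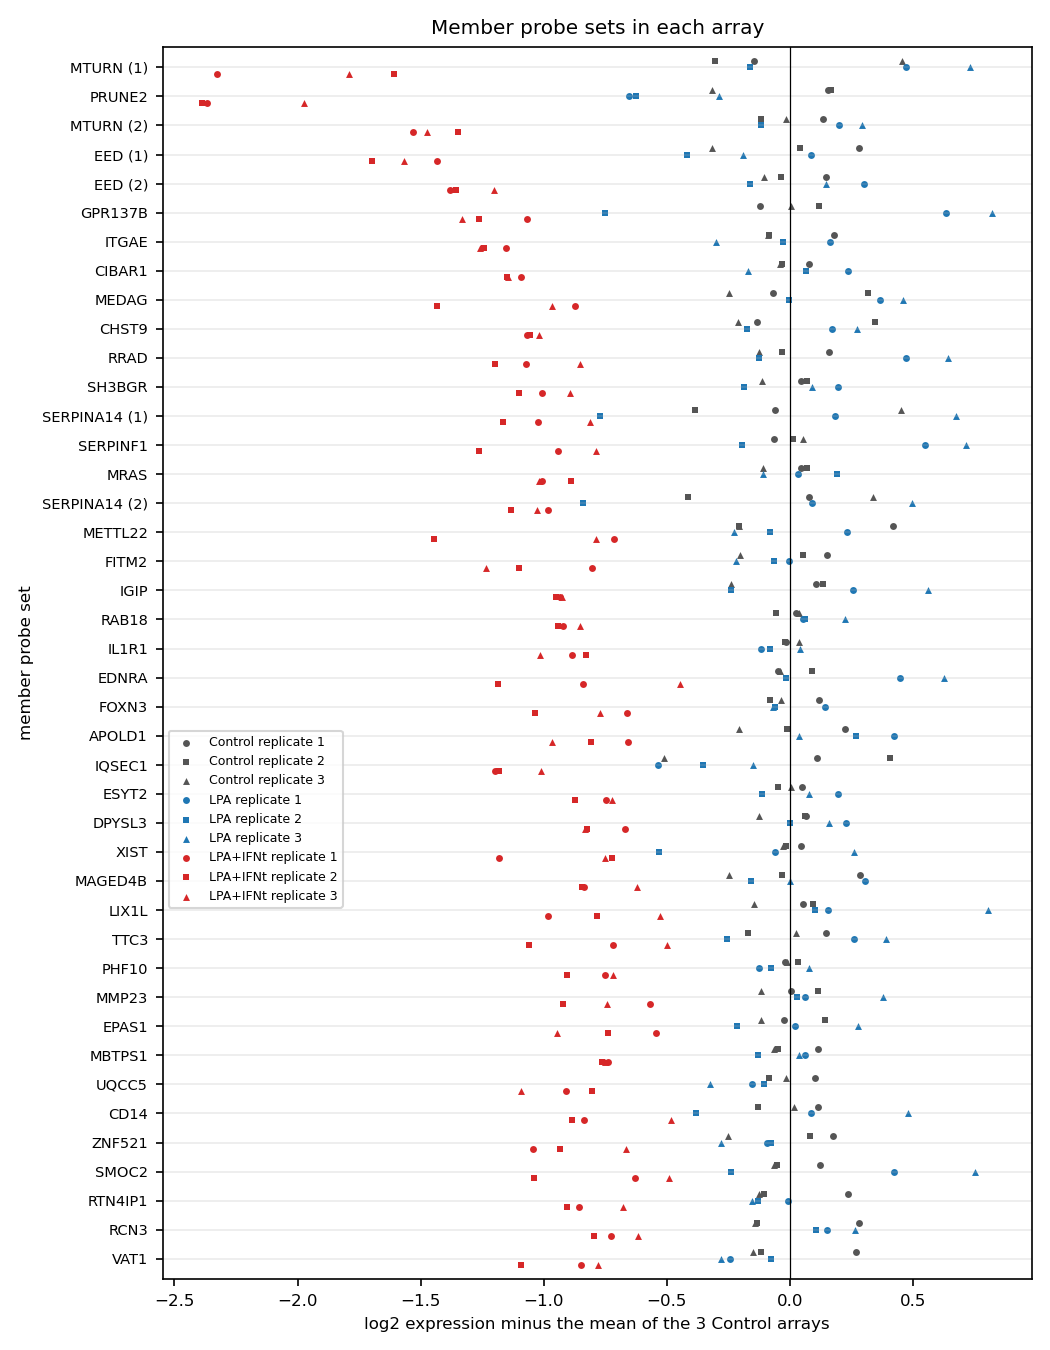
Level of each member probe set in each of the 9 arrays, as log2 expression minus the mean of the 3 Control arrays of that probe set (x axis), ordered from the largest drop below the nearer mean (top) to the smallest. Grey, blue and red are Control, LPA and LPA+IFNt, and the marker shape gives the replicate number. The red points lie left of all others in each row by the rule, and LPA replicate 2 (blue square) is the lowest LPA array in 26 of the 42 rows.

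Among receptors and signalling proteins there were 9 members, each of a different gene. GPR137B, a lysosomal membrane protein that acts on mTORC1, read 6.39, 6.63 and 6.52 in Control, 7.14, 5.76 and 7.34 in LPA, and 5.44, 5.25 and 5.18 in LPA+IFNt. Its LPA replicate 2 lay below the Control arrays while the other LPA arrays lay above them, and the gap to the LPA+IFNt arrays was 0.32. ITGAE, the integrin alpha E chain that binds E-cadherin on epithelial cells, read 9.27, 9.00 and 9.00 in Control, 9.25, 9.06 and 8.79 in LPA, and 7.93, 7.84 and 7.83 in LPA+IFNt. Control and LPA arrays of ITGAE overlapped, and the LPA+IFNt arrays lay 0.85 below the lowest of them, at 43.0% of the Control level. RRAD, a Ras-like GTPase that restrains calcium channels, read 8.46, 8.27 and 8.18 in Control, 8.78, 8.18 and 8.94 in LPA, and 7.23, 7.11 and 7.45 in LPA+IFNt. Its LPA arrays again split, with replicate 2 level with the lowest Control array and the others above all Control arrays.

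The other 6 receptors and signalling members had smaller drops below the nearer of the other group means. IL1R1, the signalling receptor of interleukin 1, had a mean of 7.46 ± 0.03 in Control, 7.41 ± 0.08 in LPA and 6.55 ± 0.09 in LPA+IFNt. EDNRA, the endothelin A receptor, had 7.01 ± 0.08, 7.36 ± 0.33 and 6.18 ± 0.37 in that order. CD14, which hands bacterial lipopolysaccharide to TLR4, had 7.18 ± 0.12, 7.24 ± 0.43 and 6.45 ± 0.22, and the gap between its LPA+IFNt arrays and the others was 0.10. These 3 receptors bind unrelated signals, and their LPA+IFNt levels were 53.2% to 60.1% of the Control level. MRAS, a small GTPase that activates RAF with SHOC2, had 5.34 ± 0.10, 5.38 ± 0.15 and 4.37 ± 0.07. IQSEC1, an exchange factor for ARF6, had 4.24 ± 0.47, 3.90 ± 0.19 and 3.11 ± 0.10, the lowest Control mean of all members. TTC3, a ubiquitin ligase for AKT, had 7.46 ± 0.16, 7.59 ± 0.34 and 6.70 ± 0.28.

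Genes that act together with a member were listed after the members were known and before their own values were looked at. They did not enter the rule, so they were tested. Of 87 listed, 69 were measured, each by its brightest probe set, and 12 lay under the trp level in Control. Against Control, 5 were called higher and 2 lower, beside 2.48% and 2.86% of all probe sets. Against LPA, 2 were called higher and 4 lower, beside 2.56% and 3.98%, and the 2 called lower in both comparisons were DPYSL2 and ESYT1. With the replicate number as a block in the model, 7 partners were called higher and 4 lower than Control, beside 3.24% and 5.44%, and 2 higher and 6 lower than LPA, beside 3.38% and 6.28%. The 3 called lower in both comparisons were then ESYT1, SMARCB1 and UQCRC1, while DPYSL2 was called only against LPA. The median difference of the 69 was -0.04 from Control and -0.05 from LPA, beside 0.02 and 0.02 over all probe sets. The partners thus stayed near the array-wide median, while single ones moved either way. Partners and members were not read alike, since a member is given by the probe set that met the rule, not by its brightest. The brightest probe sets of MRAS, EED and EPAS1 are not members, and differed from Control by 0.02, -0.31 and -0.71.

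**Figure D2:**
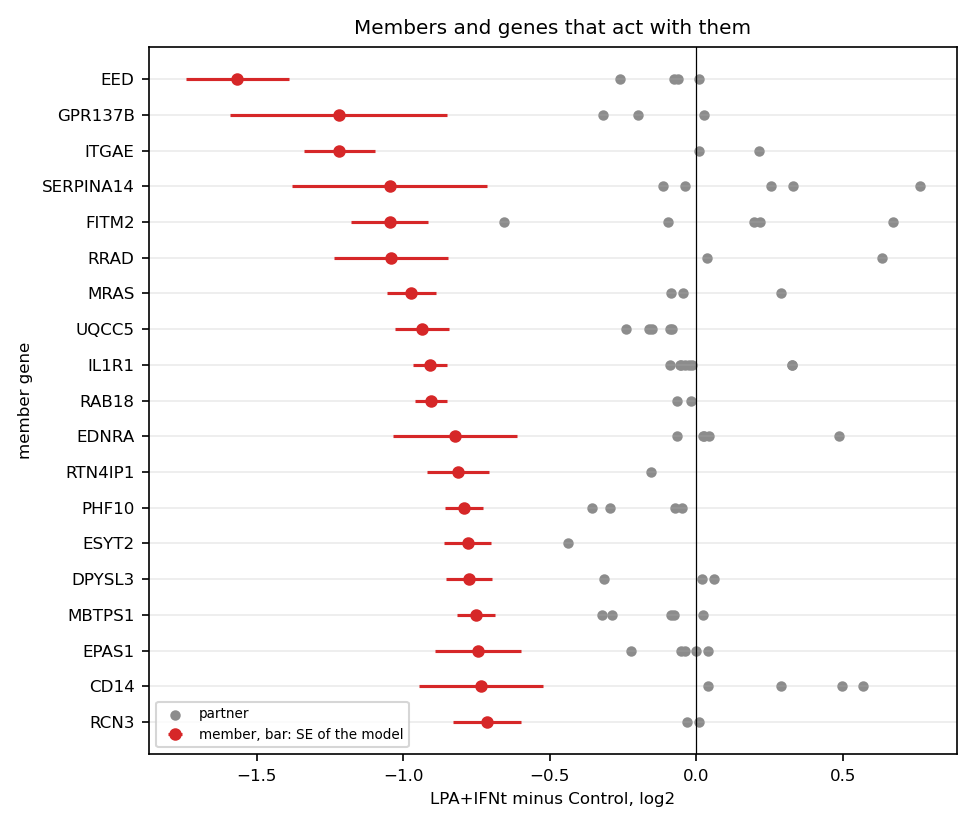
LPA+IFNt mean minus Control mean in log2 (x axis) for the 19 member genes with a measured partner (rows), with the member in red and its partners in grey. A member is shown by its member probe set with the largest drop below Control, a partner by its brightest probe set. The bar of a member is the standard error of the model. Members lie left of 0 by the rule, and most partners lie near 0, with DGAT1 (-0.66) farthest left and SERPING1 (0.76) farthest right.

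Partners of the receptors and signalling members were mostly not called, and those called in the model without the block were higher. TLR4, the receptor that CD14 serves, had 7.46 ± 0.10 in Control, 7.65 ± 0.15 in LPA and 8.02 ± 0.24 in LPA+IFNt. It rose by 0.57 over Control (SE 0.13, limma adjusted p = 0.0498), the opposite direction to CD14. TLR2, another receptor that uses CD14, was 0.50 above Control (adjusted p = 0.14), and with the replicate number as a block its adjusted p was 0.0378. Cadherin 1 (CDH1), the ligand of ITGAE, rose by 0.21 over Control (SE 0.03, adjusted p = 0.0112). It was 0.20 above Control in LPA alone too (adjusted p = 0.0964), and LPA+IFNt lay 0.01 above LPA (adjusted p = 0.894). ITGB7, the integrin chain that pairs with ITGAE, lay under the trp level in Control at 2.33 ± 0.01. GEM, a calcium channel inhibitor related to RRAD, rose by 0.63 over Control (SE 0.12, adjusted p = 0.0239). In LPA alone it was 0.49 above Control (adjusted p = 0.255), and LPA+IFNt lay 0.14 above LPA (adjusted p = 0.623). The endothelin B receptor EDNRB was 0.49 above Control (adjusted p = 0.191) and endothelin 1 (EDN1) 0.06 below it (adjusted p = 0.591). IL1RAP, the second chain of the IL1R1 receptor, was 0.47 above LPA with an adjusted p of 0.0601. RRAGC, a GTPase upstream of mTORC1 as GPR137B is, was 0.32 below Control with an adjusted p of 0.29, and 0.0199 with the block. The call of TLR4 was kept in 2 of 9 fits that each left out 1 array, namely those without LPA replicate 2 and without LPA+IFNt replicate 2, and its adjusted p ran from 0.0114 to 0.168. GEM was kept in 4 of 9, those without Control replicate 3 or an LPA array, and CDH1 in 8, with 0.0511 without Control replicate 2 and 0.163 after centring on the spike-in controls.

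Secreted proteins and proteins of the matrix and its modification held 8 member probe sets of 7 genes. SERPINA14 is the uterine serpin, also called uterine milk protein, a secretory product of the uterine glands of ruminants. Its first probe set read 10.20, 9.88 and 10.72 in Control, 10.45, 9.49 and 10.94 in LPA, and 9.24, 9.10 and 9.45 in LPA+IFNt. The second read 10.05, 9.55 and 10.31, then 10.06, 9.13 and 10.47, then 8.99, 8.84 and 8.94. In both, replicate 2 was the lowest Control and the lowest LPA array, and the gap to the LPA+IFNt arrays was 0.04 and 0.14, among the narrowest of the set. The array order of the 2 probe sets was alike in Control and LPA.

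Other secreted members had wider gaps. CHST9, a sulfotransferase that sulfates N-acetylgalactosamine on glycoproteins, read 6.18, 6.66 and 6.11 in Control, 6.48, 6.14 and 6.59 in LPA, and 5.25, 5.26 and 5.29 in LPA+IFNt. Its LPA+IFNt arrays were nearly equal and lay 0.81 below the lowest other array. SERPINF1, the antiangiogenic serpin known as PEDF, had a mean of 6.56 ± 0.06 in Control, 6.92 ± 0.49 in LPA and 5.56 ± 0.24 in LPA+IFNt. IGIP, a secreted peptide named for inducing IgA, had 5.32 ± 0.21, 5.51 ± 0.40 and 4.38 ± 0.01. SMOC2, a calcium-binding matrix protein, had 6.58 ± 0.10, 6.89 ± 0.51 and 5.86 ± 0.29. In SERPINF1, IGIP and SMOC2 alike, LPA replicate 2 was at or below the lowest Control array while LPA replicates 1 and 3 were above all Control arrays. MMP23, a membrane-anchored metalloproteinase, had 7.12 ± 0.12, 7.28 ± 0.19 and 6.38 ± 0.18. RCN3, a calcium-binding protein of the secretory pathway, had 6.23 ± 0.24, 6.40 ± 0.08 and 5.51 ± 0.09.

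Other measured serpins were higher than Control or were not called against it. SERPING1, the inhibitor of complement C1, had 8.89 ± 0.07 in Control, 8.79 ± 0.27 in LPA and 9.65 ± 0.18 in LPA+IFNt. It rose by 0.87 over LPA (SE 0.14, adjusted p = 0.0106), a call kept in 9 of 9 fits that left out 1 array, and by 0.76 over Control (adjusted p = 0.0201), kept in 4 of 9: those without an LPA array and without LPA+IFNt replicate 1. SERPINB6, an intracellular serpin, was 0.41 above LPA (adjusted p = 0.0325, kept in 3 of 9, without Control replicate 3, LPA replicate 2 or LPA+IFNt replicate 2). Against Control it was 0.33 higher with an adjusted p of 0.0809, and 0.0347 with the block. SERPINE2, a protease inhibitor of the matrix, fell by 0.26 below LPA (adjusted p = 0.023). That call was lost without LPA replicate 1 (0.0753), LPA replicate 3 (0.0628) and LPA+IFNt replicate 1 (0.0564), and after spike-in centring (0.197). RCN1 and RCN2, relatives of RCN3, were within 0.03 of Control and were not called.

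Proteins of membranes, lipid droplets and organelles gave 8 members. CIBAR1, a membrane-bending protein of the cilium base, read 10.99, 10.89 and 10.88 in Control, 11.15, 10.98 and 10.75 in LPA, and 9.82, 9.77 and 9.77 in LPA+IFNt. Control and LPA arrays overlapped and the LPA+IFNt arrays lay 0.92 lower. FITM2, an endoplasmic reticulum protein needed to form lipid droplets, had a mean of 8.29 ± 0.18 in Control, 8.20 ± 0.11 in LPA and 7.25 ± 0.22 in LPA+IFNt. RAB18, a GTPase at the contact of lipid droplets with the endoplasmic reticulum, had 10.49 ± 0.05, 10.61 ± 0.10 and 9.59 ± 0.05. ESYT2, which tethers the endoplasmic reticulum to the plasma membrane, had 11.09 ± 0.05, 11.14 ± 0.16 and 10.31 ± 0.08. RAB18 and ESYT2 were bright probe sets with SDs of 0.05 in Control. MBTPS1, the site-1 protease that cleaves sterol regulatory factors in the Golgi, had 11.07 ± 0.10, 11.06 ± 0.10 and 10.31 ± 0.01. UQCC5, an assembly factor of mitochondrial complex III, had 8.45 ± 0.10, 8.26 ± 0.12 and 7.52 ± 0.15. RTN4IP1, a mitochondrial protein that binds the reticulon RTN4, had 7.93 ± 0.20, 7.83 ± 0.08 and 7.12 ± 0.12. VAT1, a membrane trafficking protein first found in synaptic vesicles, had 7.81 ± 0.23, 7.61 ± 0.11 and 6.91 ± 0.16.

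Partners of these members again went in either direction. PLIN2, a coat protein of lipid droplets, rose by 0.67 over Control (SE 0.15, adjusted p = 0.0483), while FITM2 and RAB18 were lower. Against LPA it was 0.48 higher with an adjusted p of 0.136. The PLIN2 call against Control was kept in 2 of 9 fits, those without LPA replicate 2 and without LPA+IFNt replicate 2. ESYT1, the other measured tether of this family, had 8.26 ± 0.10 in Control, 8.23 ± 0.17 in LPA and 7.83 ± 0.08 in LPA+IFNt. It fell by 0.44 below Control (SE 0.09, adjusted p = 0.0396) and by 0.41 below LPA (adjusted p = 0.0453). These calls were kept only without LPA replicate 2 or 3 and only without LPA replicate 3, and the adjusted p with the block was 0.0073 and 0.00878. RTN4 fell by 0.21 below LPA (adjusted p = 0.0182), which was lost without LPA+IFNt replicate 2 (0.0637) or 3 (0.0674) and after spike-in centring (0.368). UQCRC1, a core subunit of complex III, was 0.24 below Control and 0.19 below LPA with adjusted p of 0.315 and 0.444, and 0.0154 and 0.0279 with the block. The sterol factors SREBF1 and SREBF2 and their partners SCAP, INSIG1 and MBTPS2 were not called. Of 22 measured sterol and fatty acid synthesis genes, the targets of those factors, 0 were higher and 2 lower than Control. The shares of all probe sets were 2.48% and 2.86%, and the 2 genes were FADS2 (-0.55, adjusted p = 0.0216) and HMGCS1 (-0.18, adjusted p = 0.0402). FADS2 was kept in 4 of 9 fits, those without Control replicate 3 or an LPA array, and HMGCS1 in 1, without LPA replicate 2, with an adjusted p of 0.712 after spike-in centring. Against LPA 0 of the 22 were called. With the block EBP, a sterol isomerase, was called lower in both comparisons (-0.25 and -0.21, adjusted p = 0.015 and 0.0256).

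Chromatin and transcription proteins held 8 member probe sets of 7 genes. EED is the subunit of Polycomb complex PRC2 that reads trimethylated lysine 27 of histone H3. Its first member probe set read 5.88, 5.64 and 5.28 in Control, 5.68, 5.18 and 5.40 in LPA, and 4.16, 3.90 and 4.03 in LPA+IFNt. The second read 8.23, 8.04 and 7.98, then 8.38, 7.92 and 8.23, then 6.70, 6.73 and 6.88. Both had the LPA+IFNt arrays at least 1 below the others, at 33.8% and 40.2% of the Control level. The annotation gives the name EED to 23 probe sets, however, with Control means from 1.87 to 10.43 and differences from Control between -1.57 and 1.01, so which of them measure EED cannot be told here. The other PRC2 genes measured were not called against Control: EZH2 was 0.08 lower (adjusted p = 0.78), EZH1 0.26 lower (0.486), RBBP7 0.06 lower (0.576) and RBBP4 0.01 higher (0.928).

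The other chromatin and transcription members each had 1 member probe set. EPAS1, the oxygen-regulated factor HIF-2 alpha, had a mean of 7.08 ± 0.13 in Control, 7.11 ± 0.25 in LPA and 6.34 ± 0.20 in LPA+IFNt. Its relative HIF1A was 0.05 below Control (adjusted p = 0.626), and the prolyl hydroxylases EGLN1, EGLN2 and EGLN3 were not called. PHF10, a subunit of the PBAF remodelling complex, had 9.21 ± 0.03, 9.17 ± 0.10 and 8.42 ± 0.10. Of its complex, SMARCA4, BRD7 and PBRM1 were not called, and SMARCB1 was 0.35 below Control and 0.21 below LPA with adjusted p of 0.233 and 0.545, and 0.00194 and 0.0116 with the block. FOXN3, a forkhead repressor, had 9.33 ± 0.11, 9.34 ± 0.12 and 8.51 ± 0.19. ZNF521, a zinc finger factor of progenitor cells, had 4.35 ± 0.22, 4.20 ± 0.11 and 3.47 ± 0.19. METTL22, a protein methyltransferase, had 5.14 ± 0.36, 5.11 ± 0.23 and 4.15 ± 0.40. XIST, the long noncoding RNA that silences an X chromosome in female cells, had 8.51 ± 0.04, 8.40 ± 0.40 and 7.63 ± 0.26, with a gap of 0.19.

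The remaining 9 probe sets, of 8 genes, belong to differentiation, the cytoskeleton and other functions, and held the steepest drops. PRUNE2, a protein with a BCH domain, read 6.56, 6.57 and 6.08 in Control, 5.75, 5.78 and 6.11 in LPA, and 4.04, 4.02 and 4.43 in LPA+IFNt. It had the lowest share of the Control level, 21.1%, and the widest gap, 1.32. MTURN, named for a role in the maturation of neural progenitors, read 5.57, 5.41 and 6.17 in Control, 6.19, 5.55 and 6.45 in LPA, and 3.39, 4.11 and 3.93 in LPA+IFNt with 1 probe set. With the other it read 7.49, 7.24 and 7.34, then 7.55, 7.24 and 7.64, then 5.82, 6.01 and 5.88. Both MTURN probe sets had gaps above 1.2, and Control and LPA arrays overlapped in both. MEDAG, which favours adipocyte differentiation, read 4.80, 5.18 and 4.62 in Control, 5.23, 4.86 and 5.33 in LPA, and 3.99, 3.43 and 3.90 in LPA+IFNt. SH3BGR, a small protein named for its SH3-binding, glutamic acid-rich sequence, read 7.56, 7.59 and 7.40, then 7.71, 7.33 and 7.61, then 6.51, 6.41 and 6.62. MEDAG and SH3BGR were at 46.9% and 49.9% of the Control level.

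The last 4 of these members had smaller drops. DPYSL3, a cytoskeletal protein of growing neurites, had a mean of 9.40 ± 0.11 in Control, 9.52 ± 0.12 in LPA and 8.62 ± 0.09 in LPA+IFNt. Its relative DPYSL2 had 11.62 ± 0.07, 11.73 ± 0.01 and 11.30 ± 0.14. DPYSL2 fell by 0.43 below LPA (SE 0.07, adjusted p = 0.0106), a call kept in 9 of 9 fits that left out 1 array. It fell by 0.32 below Control (adjusted p = 0.0427), which was kept only without LPA+IFNt replicate 3 and was 0.0506 with the block and 0.172 after spike-in centring. APOLD1, an early gene of endothelial and other cells, had 7.59 ± 0.22, 7.83 ± 0.19 and 6.78 ± 0.15. LIX1L, an RNA-binding protein, had 4.63 ± 0.13, 4.98 ± 0.39 and 3.86 ± 0.23. MAGED4B, of the MAGE family, had 7.67 ± 0.27, 7.72 ± 0.24 and 6.90 ± 0.13.

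With LPA alone the members scattered around the Control level. The rule made it harder for genes lowered by LPA alone to enter, so a lack of such members is partly set by the choice. None of the 42 was called against Control (limma, lowest adjusted p 0.472, and 0.0864 with the replicate block), beside 0.0708% of all probe sets, or 17, of which 5 (0.0208%) were lower. At an unadjusted limma p under 0.05 there was 1 member, PRUNE2, beside 8.3% of all probe sets: it lay 0.52 below Control (SE 0.18, unadjusted p = 0.0188), with Control and LPA arrays overlapping. With the replicate block 4 members were under that threshold, beside 3099 of all 24016 probe sets. The lowest adjusted p with the block was that of APOLD1, which was higher in LPA by 0.20, 0.28 and 0.25 within replicate numbers 1, 2 and 3. The LPA mean lay above Control for 27 members and below for 15, beside 52.4% above over all probe sets. The median difference of the members was 0.05, against 0.00 over all probe sets, with a range from -0.52 for PRUNE2 to 0.36 for SERPINF1. Control and LPA arrays overlapped in 39 members. All LPA arrays lay above Control in RAB18 and LIX1L and below it in UQCC5, and 10% of all probe sets have such a separation in either direction.

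**Figure D3:**
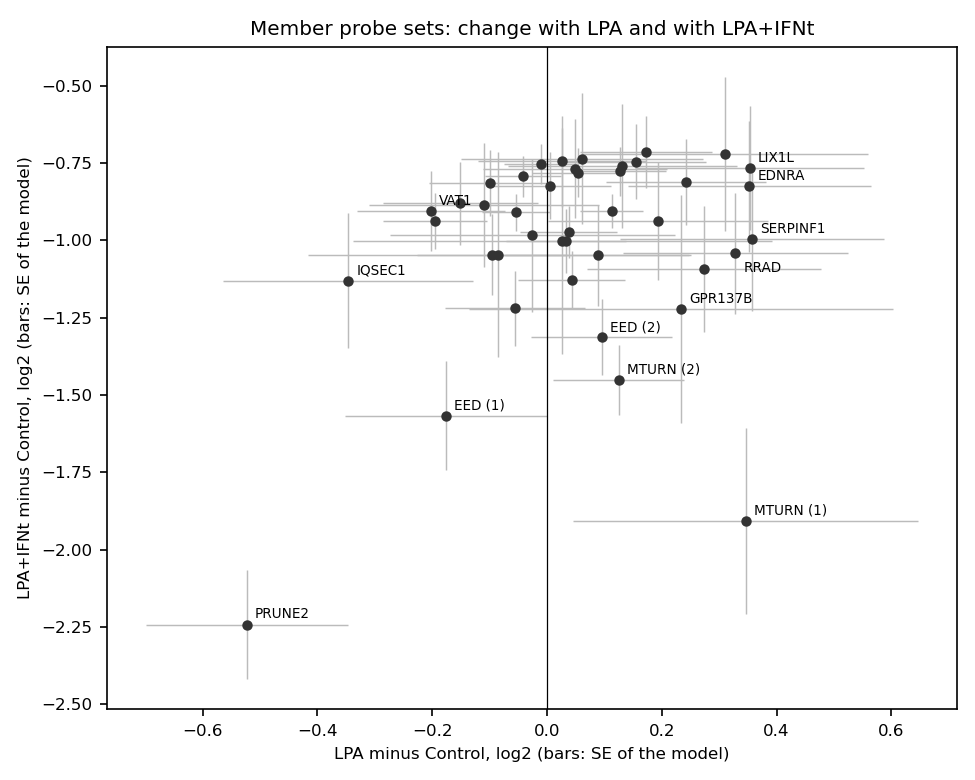
Difference of LPA from Control (x axis) against difference of LPA+IFNt from Control (y axis) for the 42 member probe sets, both in log2, with bars for the standard error of the model. The y values are below -0.7 by the rule and both axes share the Control arrays, so no relation is read from the plot. Along x the points run from -0.52 (PRUNE2) to 0.36 (SERPINF1) on both sides of 0.

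The spread between LPA arrays was wider for the members than the spread in the other groups. The SD of the LPA arrays exceeded that of Control in 29 members and that of LPA+IFNt in 30, with medians of 0.22, 0.13 and 0.14 for LPA, Control and LPA+IFNt. Over all probe sets with a Control mean of at least 4 the medians were 0.13, 0.10 and 0.10. LPA replicate 2 was the lowest LPA array in 26 of the 42, beside 21.7% of all probe sets. This share, like others over all probe sets, covers 24016, of which only 12406 had a Control mean of at least 4, as each member has. It is thus not a share among probe sets as bright as the members. Without LPA replicate 2, GPR137B was called higher in LPA than in Control (0.73, adjusted p = 0.049), and 9 members had an unadjusted p under 0.05. Of all 24016 probe sets 169 and 3142 were then past these thresholds, and the members' median was 0.15. Without LPA replicate 1 that median was -0.00, so its sign rests on the array left out. Control replicate 3 was the lowest Control array in 26 of the 42, and no share over all probe sets was taken for it. The members' median deviation from the group mean was -0.11 in that array and -0.19 in LPA replicate 2. Without Control replicate 3 the members' median difference of LPA from Control was 0.03. A second probe set of GPR137B read 4.59, 4.70 and 4.70 in Control, 5.79, 4.71 and 5.84 in LPA and 4.52, 4.70 and 4.30 in LPA+IFNt, so LPA replicate 2 lay at the Control level there too.

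**Figure D4:**
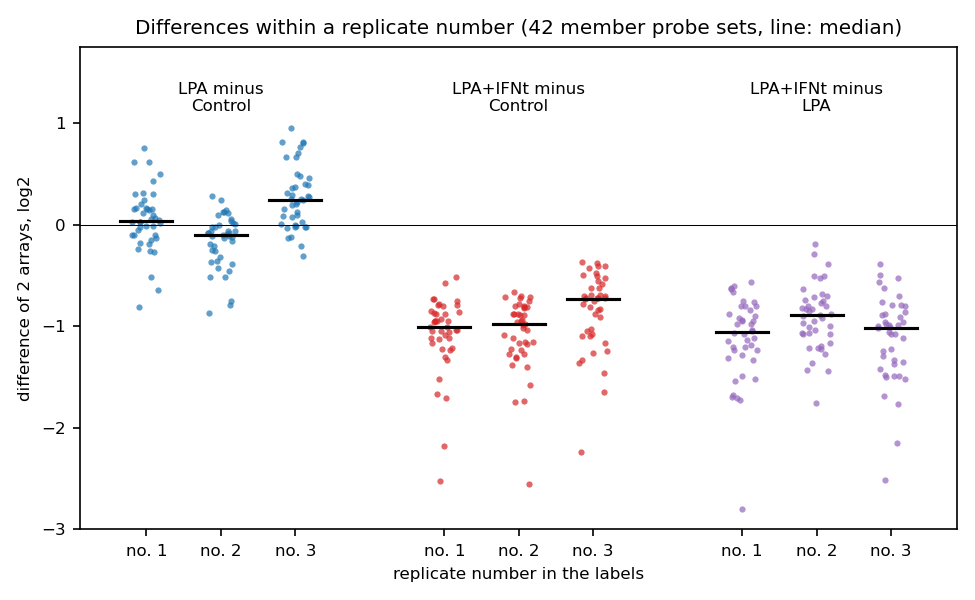
Differences of 2 arrays with the same replicate number in log2 (y axis) for the 42 members, 1 point each, with a line at the median. LPA minus Control has medians of 0.04, -0.10 and 0.25 for numbers 1, 2 and 3, and both differences from LPA+IFNt are below 0 in every point, as the rule requires of the arrays.

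The labels use the same replicate numbers in each group without saying what they mark, and arrays with the same number deviated together. Within number 1, LPA lay above Control in 25 of the 42 members, with a median of 0.04. Within number 2 it lay below in 30, with a median of -0.10, and within number 3 above in 32, with a median of 0.25. Over all probe sets, dim ones included, the shares above Control were 43.6%, 64.4% and 33.1%. In each number the members leaned the other way, but shares among probe sets with a Control mean of at least 4 were not taken. The LPA+IFNt arrays lay below the Control array of their number with medians of -1.01, -0.98 and -0.73, and LPA+IFNt replicate 2 was the lowest of its group in 25 of the 42, beside 25.3% of all probe sets.

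For 17 member genes the array had further probe sets, and these were read as a description, since they come from the same arrays and contrast. The 46 others belong to 16 genes, and 21 of them carry the name EED. Of the 25 others, 13 had a Control mean under 4. Of the 12 with a Control mean of at least 4, 10 had an LPA+IFNt mean below both other means, beside 30% of all probe sets. Some of the 10 were lower by very little, among them a probe set each of XIST and TTC3 given below. All LPA+IFNt arrays lay below the rest in 5 of the 12, beside 7.44% of all probe sets. EPAS1 was lower in a bright second probe set as well, with 12.24 ± 0.16 in Control, 12.21 ± 0.20 in LPA and 11.53 ± 0.02 in LPA+IFNt. A second probe set of TTC3 had 7.34 ± 0.28, 7.47 ± 0.25 and 6.66 ± 0.26, and one of SMOC2 7.86 ± 0.07, 8.23 ± 0.60 and 7.31 ± 0.34. XIST in its brightest probe set had 9.80 ± 0.08, 9.95 ± 0.51 and 9.28 ± 0.02. In these 4 genes a pair of probe sets separated the LPA+IFNt arrays from the others. A second, brighter probe set of LIX1L did so with a gap of 0.03 only. Its mean was 8.41 in Control and 8.28 in LPA+IFNt, a difference of -0.13, where the member probe set had -0.77. Another bright XIST probe set had 9.40 ± 0.02, 9.19 ± 0.18 and 9.19 ± 0.11, with LPA and LPA+IFNt arrays overlapping. TTC3 had a pair of others with overlapping arrays, 0.21 and 0.02 below Control. MRAS and MTURN had probe sets with little difference between the groups: the second MRAS probe set had 5.91 ± 0.01, 5.89 ± 0.03 and 5.93 ± 0.04, and a pair of brighter MTURN probe sets had 8.28 ± 0.13, 8.24 ± 0.01 and 8.18 ± 0.07, and 8.50 ± 0.09, 8.39 ± 0.08 and 8.39 ± 0.18. A dimmer MTURN probe set had 3.73 ± 0.02, 4.16 ± 0.45 and 3.48 ± 0.18, with the LPA+IFNt arrays lowest by 0.04. Whether the probe sets of a gene read different transcripts was not tested.

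**Figure D5:**
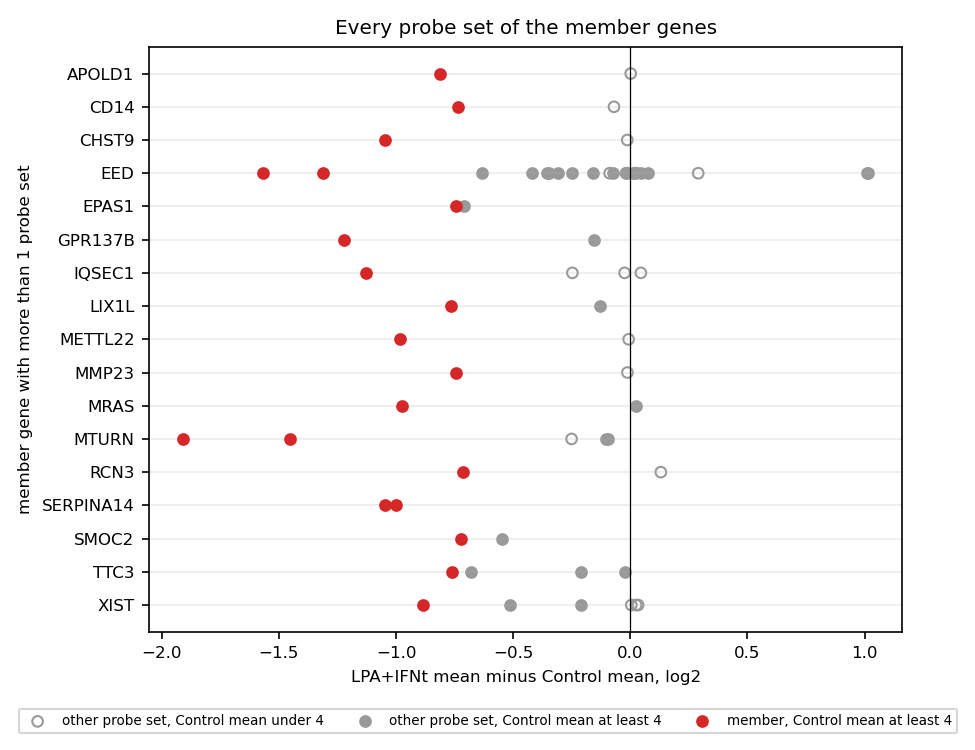
LPA+IFNt mean minus Control mean in log2 (x axis) for each probe set of the 17 member genes that have more than 1 (rows). Members are red, others grey, and open circles have a Control mean under 4. EPAS1, TTC3, SMOC2 and XIST have a second probe set at -0.71, -0.68, -0.55 and -0.52, MRAS has one at 0.02, and EED spans -1.57 to 1.01.

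The limit of 0.7 cut through a continuous range. Just inside lay RCN3 and VAT1, 0.71 and 0.70 below the nearer mean, and just outside NFIA (-0.69) and the protease cathepsin B, CTSB (-0.68). ZBTB44 (-0.99), CSF3 (-0.99), SAA3 (-0.90) and MIA3 (-0.88) passed the limit but their arrays overlapped, and OLFM1 (-0.90) and RENBP (-0.92) had Control means of 3.89 and 3.50. Of the members, 32 were also called lower than Control and 34 lower than LPA by limma, and 30 both, beside 2.86% and 3.98% of all probe sets. With the replicate block these were 36 and 38, beside 5.44% and 6.28%. Both contrasts were used by the rule, and nothing is read from these counts.

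The sum of the stromal markers was lower in LPA+IFNt, while most single markers were not called, and their part in the result was not tested. The median difference of the 14 was -0.14 from Control and -0.24 from LPA. A sum of linear levels gives most weight to the brightest markers. COL3A1 also has another probe set that met the rule and was left out by its symbol. The summed level of the 14 stromal markers, as log2 of the summed linear levels, was 16.84 to 16.96 in Control, 16.90 to 17.01 in LPA and 16.69 to 16.72 in LPA+IFNt, with no overlap of LPA+IFNt and the rest. Of the 14, 0 rose and 3 fell against Control, beside 2.86% of all probe sets called lower, and 0 rose and 5 fell against LPA, beside 3.98%. COL3A1, a fibrillar collagen, fell by 0.51 below Control (SE 0.05, adjusted p = 0.00153), FBN1, a microfibril protein, by 0.39 (adjusted p = 0.00797) and COL1A1 by 0.39 (adjusted p = 0.034). THY1, a stromal surface protein, fell by 0.69 below LPA (adjusted p = 0.00208), and COL1A1 and COL3A1 by 0.55 and 0.54 (adjusted p = 0.00776 and 0.00113). These calls were kept in 9 of 9 fits that left out 1 array, except COL1A1 against Control in 2, without LPA replicate 1 or 2. COL1A2, also among the 5, fell by 0.25 below LPA (limma adjusted p = 0.0326). That call was kept in 4 of 9 fits, and its adjusted p was 0.294 after spike-in centring. FBN1 and COL1A1 against Control had adjusted p of 0.116 and 0.0654 after spike-in centring. The summed epithelial markers overlapped between groups, at 15.73 to 15.82, 15.74 to 15.77 and 15.76 to 15.84, and of the 14 CDH1 was called higher than Control and SPINT2 lower than LPA. SPINT2, a protease inhibitor of epithelial surfaces, had 11.29 ± 0.06 in Control, 11.77 ± 0.12 in LPA and 11.32 ± 0.02 in LPA+IFNt. It fell by 0.45 below LPA (adjusted p = 0.00457, kept in 9 of 9 fits), while LPA alone was 0.49 above Control (adjusted p = 0.0566). With the block MUC1, a mucin, was called higher than Control and LPA (0.40 and 0.48, adjusted p = 0.0288 and 0.0157) and KRT18, a keratin, higher than LPA (0.20, adjusted p = 0.0378).

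Most markers of leukocytes, endothelium and red blood cells lay under the trp level. Of 8 measured smooth muscle and pericyte markers 5 lay above the trp level in Control, and their sum ran from 9.32 to 9.71 in Control, 9.58 to 9.75 in LPA and 9.20 to 9.34 in LPA+IFNt. None of the 8 was called by limma, and at an unadjusted p under 0.05 there were 1 against Control and 3 against LPA. With the block SMTN, a contractile protein, was called lower than Control (-0.93, adjusted p = 0.0114), and SMTN, CNN1 and the intermediate filament protein DES were called lower than LPA (-0.65, -0.37 and -1.57, adjusted p = 0.0314, 0.0109 and 0.0204). Of all probe sets 5.44% and 6.28% were called lower with it in these comparisons. Of 17 measured leukocyte markers 12, among them CD3E, ITGAM and MS4A1, were under the trp level in Control. CD14, a member, is 1 of the 5 above it. CD53, a leukocyte surface protein under the trp level in Control at 2.75, was 4.01 in LPA+IFNt (adjusted p = 0.0252, kept in 3 of 9 fits, without LPA replicate 2 or 3 or LPA+IFNt replicate 2). It was 1.15 above LPA (adjusted p = 0.0336, kept in 2 of 9, without LPA replicate 3 or LPA+IFNt replicate 2). The leukocyte sum was 8.27 to 8.49, 8.44 to 8.76 and 8.19 to 8.37, overlapping between Control and LPA+IFNt. Endothelial markers had 1 of 10 above the trp level and red blood cell markers 0 of 5.

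The pathway lists, chosen with earlier results of these data known, held none of the members, and nothing is read from that. Whether these pathways share control with the members was not tested. Of 10 Notch pathway genes, 15 steroid, thyroid and oxytocin receptors and cofactors and 16 axon guidance genes measured, 0 were called by limma in any comparison, beside 5.34% of all probe sets called between LPA+IFNt and Control and 6.54% between LPA+IFNt and LPA. At an unadjusted p under 0.05 against Control these lists held 1, 1 and 3 genes. With the block, 5 of their genes were called. Over all probe sets the block called 3.24% higher and 5.44% lower than Control, and 3.38% higher and 6.28% lower than LPA. JAG1, a Notch ligand, was then lower than Control and LPA (-0.32 and -0.43, adjusted p = 0.00635 and 0.00223). OXTR, the oxytocin receptor, was lower than Control (-0.47, adjusted p = 0.023), with 0.0984 in the model without the block. NTN4 and EFNA5, guidance ligands, were lower than LPA (adjusted p = 0.0173 and 0.0476), and NCOA1, a receptor coactivator, higher (adjusted p = 0.0386).

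Among 14 ID and BMP genes BMP7, a growth factor, had 7.21 ± 0.11 in Control, 6.61 ± 0.24 in LPA and 6.20 ± 0.15 in LPA+IFNt. It was lower than Control by 1.01 (SE 0.13, adjusted p = 0.0039, kept in 9 of 9 fits) and was not called against LPA (-0.40, adjusted p = 0.141). BMP2 was called higher than LPA with the block only (0.30, adjusted p = 0.0445). Among 19 WNT genes WNT2B fell by 0.69 below LPA (adjusted p = 0.0286, kept in 2 of 9, without LPA replicate 2 or LPA+IFNt replicate 3), and 0 were called against Control.

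Of 23 short-lived transcription factors 2 rose and 2 fell against Control, beside 2.48% and 2.86% of all probe sets. Against LPA 1 rose and 5 fell, beside 2.56% and 3.98%. JUND fell by 0.34 below Control (adjusted p = 0.00946, and 0.061 after spike-in centring) and EGR1 by 0.22 (adjusted p = 0.0174, and 0.541 after that centring), while ATF3 rose by 0.38 (adjusted p = 0.0188) and IER2 by 0.34 (adjusted p = 0.036, kept in 1 of 9 fits, without LPA+IFNt replicate 2). IER2 rose by 1.05 in LPA over Control (adjusted p = 0.0106, lost without Control replicate 2 at 0.0698 and LPA replicate 1 at 0.0599) and was 0.71 lower in LPA+IFNt than in LPA (adjusted p = 0.00107, kept in 9 of 9). CEBPB and KLF15 fell below LPA by 0.69 and 0.63 (adjusted p = 0.0381 and 0.0254, kept in 2 and 3 of 9), as did EGR1 and JUND. JUN, a subunit of the AP-1 factor, rose by 0.42 over LPA (adjusted p = 0.0218), which was lost without LPA replicate 1 (0.087) or 3 (0.0696) and without LPA+IFNt replicate 1 (0.0655) or 3 (0.0599). With the block 4 were called lower than Control, with KLF13 and KLF15 added, beside 5.44% of all probe sets. Against LPA 9 were then lower, with KLF11, KLF13, IER3 and CEBPD added, beside 6.28%.

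Of 30 growth factors and binding proteins IGFBP1, an insulin-like growth factor binding protein of the receptive uterus, fell by 0.66 below Control (adjusted p = 0.0168) and by 0.85 below LPA (adjusted p = 0.00509, kept in 9 of 9). IGFBP3, another binding protein of this family, had 11.64 ± 0.06 in Control, 11.08 ± 0.51 in LPA and 12.09 ± 0.10 in LPA+IFNt. It rose by 1.01 over LPA (adjusted p = 0.0367, kept in 2 of 9, without LPA replicate 2 or 3). Of 15 SRF and YAP targets 0 rose and 2 fell against Control, beside 2.48% and 2.86% of all probe sets. Against LPA 3 fell, beside 3.98%, led by ACTA2, smooth muscle actin, at 1.05 lower (adjusted p = 0.00853, kept in 9 of 9). TPM2, a tropomyosin, fell by 0.52 below Control (adjusted p = 0.026, and 0.0695 after spike-in centring) and CRIM1 by 0.25 (adjusted p = 0.0366, 0.0572 with the block and 0.544 after that centring). TPM2 and CRIM1 fell below LPA by 0.50 and 0.31 (adjusted p = 0.0273 and 0.0146, and 0.0574 and 0.228 after that centring). With the block 5 of these targets were called lower than LPA, with CNN1 and FLNA added, beside 6.28% of all probe sets. FLNA, a filamin, was then called lower than Control too (-0.46, adjusted p = 0.00172).

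Of 9 ERK feedback inhibitors 2 rose and 0 fell in both comparisons, beside 2.48% and 2.56% of all probe sets called higher. RGS16 rose by 1.00 over Control (adjusted p = 0.0198) and by 1.18 over LPA (adjusted p = 0.00897, kept in 9 of 9), and DUSP10 by 0.52 (adjusted p = 0.00599) and 0.32 (adjusted p = 0.0423, and 0.126 after spike-in centring). Among 20 homeobox and patterning factors MEIS2 rose by 0.52 over Control (adjusted p = 0.00665) and by 0.34 over LPA (adjusted p = 0.0381, and 0.0875 after that centring). HOXA9 was called lower than both groups with the block only (-0.33 and -0.43, adjusted p = 0.0253 and 0.0104). Among 31 cell cycle genes RRM1, a subunit of ribonucleotide reductase, fell by 0.27 below Control (adjusted p = 0.034, and 0.24 after that centring). With the block it was also lower than LPA (-0.21, adjusted p = 0.0195), and CCND1, MCM3, CDT1 and CHEK1 were higher than LPA, by 0.18 to 0.64. Of these calls against Control, left-out arrays ended those of EGR1 and ATF3 (kept in 5 of 9), IGFBP1 (6), TPM2 and RGS16 (4), and CRIM1 and RRM1 (2). Of those against LPA, they ended DUSP10 (kept in 2, without LPA replicate 2 or LPA+IFNt replicate 1), MEIS2 (3), TPM2 (4) and CRIM1 (7, lost without LPA+IFNt replicate 1 or 3).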

How the data were processed

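The values are the authors' deposited log2 probe set levels. RMA and Partek are named in the submitters' processing notes, with no version given in the sources used here. The base of the logarithm was inferred from RMA's customary output and the span of the levels. RMA makes the arrays' distributions alike, so a change common to most transcripts would be hidden. Probe sets were named through the platform annotation, and all 42 members matched the RefSeq gene table of ARS-UCD2.0 by gene identifier, with 0 symbols changed.

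Of 24128 probe sets, 112 Affymetrix controls were left out. Groups were compared on all 9 arrays with limma (version 3.58.1, under R 4.3.3), a linear model per probe set with moderated variances, two-sided and without covariates, with Benjamini-Hochberg adjustment over 24016 probe sets and a threshold of 0.05. The procedure was tested on simulated data. The labels number replicates 1 to 3 in each group and do not say what the numbers mark. Deviations from the group mean correlated between same-numbered arrays at 0.19 to 0.49 in all 9 pairs, and between differently numbered arrays at -0.47 to 0.14. Whether the numbers stand for shared cows or for shared handling cannot be told. The main fit leaves them out, and a replicate block was the alternative fit.

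The members and lists were chosen with earlier results of these data known, and roles and partners after the members were known. Every member is named. The 12 with the largest drop below the nearer mean are given in every array. The pairs of probe sets nearest the limit of 0.7 on either side are named, and from each list the called genes with the largest change, at most 3 per comparison, except that ISG15 stands for the antiviral genes. EGR1, JUN and the genes called only with the block were named after their values were seen. The number of arrays limits the precision.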

Additional observations from a re-analysis of the deposited data

How the results depend on the processing

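Every member stayed lower in LPA+IFNt than in both other groups in each alternative run. Without 1 array this was fixed in advance, since the rule puts all LPA+IFNt arrays below the others. Spike-in centring shifted each array by much less than 0.7, and averages include the member probe sets, so nothing is read from this. The drop was at least 0.7 in 35 of the 42 after spike-in centring and in 27 when probe sets of a gene were averaged. The rule found 118 probe sets at a limit of 0.5, 13 at a limit of 1 and 25 genes with probe sets averaged, and 37 to 56 without 1 array. Members called between LPA and Control numbered 0 in each alternative except 1 without LPA replicate 2 (range 0 to 1). With the replicate number as a block, LPA against Control gave 11 calls and LPA+IFNt against Control 2085 in place of 1282. Calls of partners and listed genes that it gained or ended are given beside those genes. COL1A2, 1 of the 5 stromal markers below LPA, had an adjusted p of 0.0609 with it. All calls of LPA against Control, 17 in the main setting, numbered 1 with only the 6 arrays, 49 after spike-in centring, 54 with a mean of at least 4, 36 with a variance trend, 28 with probe sets averaged, 0 without variance moderation (1476 at an unadjusted p under 0.05), and 0 to 169 without 1 array. Without moderation LPA+IFNt gave 788 calls against Control and 901 against LPA, where only the 6 arrays gave 1004. Without 1 array these ran from 791 to 1352 and from 954 to 2204. The few arrays limit what can be called.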
